A study of Rattus norvegicus with 12 samples.

Results

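The genes described here are the major histocompatibility complex (MHC) and antigen processing genes of rat PAC1 cells. They were chosen by name: every gene symbol starting with RT1-, the prefix of the rat MHC, together with B2m, Tap1, Tap2, Tapbp, Psmb8, Psmb9, Psmb10, Nlrc5, Ciita and Cd74. The rule used no measured value and took 57 genes out of the 33294 that were counted. Of the 57, 37 are class I heavy chain genes, 10 are class II genes, 3 serve peptide transport and loading, 3 are immunoproteasome subunits, 2 are transcriptional regulators, and B2m and Cd74 complete the list.

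The study asked how RNA-binding proteins shape the transcriptome of smooth muscle cells that switch between a differentiated and a proliferative state. PAC1 is a single cell line from rat pulmonary artery smooth muscle, so all groups share 1 genetic origin. Poly(A)-selected RNA from 12 cultures was sequenced, in 4 groups of 3. D1 cells were differentiated PAC1 cells, split at a dilution of 1 in 10 at 1 split per week, and received the scrambled control siRNA C2. P cells were proliferative PAC1 cells, split at a dilution of 1 in 20 at 2 splits per week, with the same control siRNA. RBPMS KD1 cells were differentiated cells given an siRNA against Rbpms. MBNL KD cells, titled MBNL1 KD in the labels, were differentiated cells given siRNAs against Mbnl1 and Mbnl2. Every group received 90 pmol of siRNA, and the labels give a second transfection after 24 h and a harvest 48 h later, whereas the study's methods give longer intervals. State and culture schedule cannot be told apart in P against D1, and the 3 comparisons with D1 share its libraries.

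MHC class I molecules display peptides from inside the cell to CD8+ T cells and to natural killer cells. A heavy chain pairs with the light chain beta-2-microglobulin (B2m), the TAP transporter (Tap1 and Tap2) moves peptides from the cytosol into the endoplasmic reticulum, and tapasin (Tapbp) helps to load them. Under interferon the proteasome exchanges its constitutive catalytic subunits for Psmb8, Psmb9 and Psmb10, and the coactivator Nlrc5 drives class I transcription. Class II molecules, made mainly by professional antigen-presenting cells under the control of Ciita, present material from endosomes with the help of the invariant chain Cd74 and the exchange factors DM and DO.

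The siRNAs are shown because they define the 3 siRNA treatments behind all comparisons. Their sense strands, from the study's list of oligonucleotides, read 5′ to 3′ as follows.
C2: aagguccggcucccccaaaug
RBPMS: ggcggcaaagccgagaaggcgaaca
MBNL1: cacggaauguaaauuugcauu
MBNL2: gaagaguaauugccugcuuuu
The siRNAs C2, MBNL1 and MBNL2 are 21 bases long and the RBPMS siRNA is 25 bases long.

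Promoters are shown for 8 members that stand for the patterns described below: the class I heavy chains with the most counts, which moved with most of the family (RT1-A2 and RT1-CE5), a pair that did not follow it in P (RT1-S3 and RT1-T24-1), the light chain gene B2m, the neighbours Tap1 and Psmb9, and Psmb10. Each window holds the 250 bases before the RefSeq transcription start in the assembly GRCr8, 5′ to 3′ on the strand of the gene. This assembly is not the one the reads were aligned to. Capitals mark the letters GAAA and GAAA with any 2 bases between them, as in interferon response elements (the spaced GAAA pair), GAAGNGAAA, and CCAAT, as in the Y box of MHC promoters, on either strand. The windows lie at chr20:4872621-4872870 (plus strand) for RT1-A2, chr20:3484091-3484340 (minus) for RT1-CE5, chr20:2675278-2675527 (plus) for RT1-S3, chr20:2766054-2766303 (plus) for RT1-T24-1, chr3:129549080-129549329 (plus) for B2m, chr20:4668544-4668793 (minus) for Tap1, chr20:4668750-4668999 (plus) for Psmb9 and chr19:50743293-50743542 (minus) for Psmb10.
RT1-A2: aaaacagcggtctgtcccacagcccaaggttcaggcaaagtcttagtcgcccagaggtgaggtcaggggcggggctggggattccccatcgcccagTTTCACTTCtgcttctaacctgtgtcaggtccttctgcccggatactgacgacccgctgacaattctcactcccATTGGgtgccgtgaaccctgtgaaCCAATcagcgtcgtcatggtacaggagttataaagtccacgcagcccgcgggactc
RT1-CE5: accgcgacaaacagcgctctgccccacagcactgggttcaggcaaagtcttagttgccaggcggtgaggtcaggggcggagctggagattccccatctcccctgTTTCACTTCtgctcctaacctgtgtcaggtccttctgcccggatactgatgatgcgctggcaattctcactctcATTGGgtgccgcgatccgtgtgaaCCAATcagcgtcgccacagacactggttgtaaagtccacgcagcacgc
RT1-S3: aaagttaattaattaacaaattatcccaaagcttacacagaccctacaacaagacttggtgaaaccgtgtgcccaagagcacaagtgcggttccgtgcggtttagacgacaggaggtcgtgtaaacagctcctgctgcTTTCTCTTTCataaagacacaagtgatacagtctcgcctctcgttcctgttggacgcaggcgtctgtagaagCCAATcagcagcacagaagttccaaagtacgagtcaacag
RT1-T24-1: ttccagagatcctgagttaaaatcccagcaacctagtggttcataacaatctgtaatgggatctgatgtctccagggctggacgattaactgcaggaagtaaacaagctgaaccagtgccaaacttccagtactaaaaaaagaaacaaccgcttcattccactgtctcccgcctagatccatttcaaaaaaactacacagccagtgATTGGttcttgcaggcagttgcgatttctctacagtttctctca
B2m: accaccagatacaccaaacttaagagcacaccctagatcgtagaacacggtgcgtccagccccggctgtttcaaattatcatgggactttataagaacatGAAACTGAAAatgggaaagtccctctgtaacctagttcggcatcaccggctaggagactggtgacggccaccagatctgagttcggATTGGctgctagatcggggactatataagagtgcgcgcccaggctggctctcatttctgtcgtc
Tap1: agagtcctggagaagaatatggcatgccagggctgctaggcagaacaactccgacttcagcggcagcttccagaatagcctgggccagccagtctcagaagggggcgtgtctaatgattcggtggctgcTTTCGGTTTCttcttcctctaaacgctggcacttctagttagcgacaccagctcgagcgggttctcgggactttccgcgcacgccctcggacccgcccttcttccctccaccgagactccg
Psmb9: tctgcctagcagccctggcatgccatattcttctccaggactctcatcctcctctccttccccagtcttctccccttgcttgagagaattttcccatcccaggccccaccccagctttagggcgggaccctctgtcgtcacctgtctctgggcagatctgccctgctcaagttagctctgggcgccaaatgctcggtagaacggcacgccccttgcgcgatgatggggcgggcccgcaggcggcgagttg
Psmb10: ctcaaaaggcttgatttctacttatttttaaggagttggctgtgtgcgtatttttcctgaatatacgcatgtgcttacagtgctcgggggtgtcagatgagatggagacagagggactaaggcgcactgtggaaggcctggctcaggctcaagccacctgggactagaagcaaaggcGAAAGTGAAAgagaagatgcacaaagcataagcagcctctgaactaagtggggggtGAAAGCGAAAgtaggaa

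All 57 members matched the RefSeq gene table by symbol and 49 had a promoter window. The spaced GAAA pair was found in 8 of the 49 windows (RT1-N3, RT1-S2, RT1-S3, B2m, Tap1, Tap2, Tapbp and Psmb10) and in 3.41% of all 33469 windows of the same length. Psmb10 and Tapbp held it at 2 places each. GAAGNGAAA, a spelling chosen after the sequences had been seen, was found in 12 of the 49 windows and in 2.17% of all windows. Those 12 were Tap2 and 11 class I heavy chains: RT1-A1, RT1-A2, RT1-A3, RT1-CE3, RT1-CE5, RT1-CE10, RT1-CE11, RT1-CE13, RT1-CE15, RT1-CE16 and RT1-T18. In RT1-A2 and RT1-CE5 the match lay on the minus strand, with its first base 154 and 146 bases before the start. CCAAT was found in 32 of the 49 windows and in 34% of all windows. The spelling TTCNNNGAA was found in 3 member windows (RT1-M1-5, RT1-M3-1 and Psmb8) and in 7.67% of all windows, and GGGAAA in 10 and in 22%, and GGGAAA may overlap the spaced GAAA pair. Tap1 and Psmb9 are transcribed away from each other from starts with 456 bases between them, and their windows overlap. The heavy chain windows come from related genes and are not independent, and a match of letters does not show that a factor bound there.

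Total counts per library lay between 80842635 and 90771289, the lowest being MBNL KD replicate 3. At this depth 3 counts correspond to between 0.0331 and 0.0371 counts per 1000000 scaled counts (CPM), which covers counting error only. No pair of replicates agreed within counting noise: chi-square per degree of freedom between replicates ran from 3.68 to 12.8, and both values of 12.8 involved MBNL KD replicate 3. This takes each count as independent, and overstates the distance from counting noise if mates of a pair were counted separately. The totals exceed the depth to which the study's methods say reads were subsampled. The targeted genes were lower in the labelled groups. Rbpms fell from between 141 and 156 CPM in D1 to between 37.1 and 38.4 CPM in RBPMS KD1, and stood at 9.37 to 9.56 CPM in P. In MBNL KD, Mbnl1 fell by 2.07 and Mbnl2 by 1.75 on the log2 scale. The summed level of 8 smooth muscle markers (Acta2, Cnn1, Myh11, Myl9, Mylk, Myocd, Smtn and Tagln) was 9987 ± 288 CPM in D1 (SD, n = 3), 7869 ± 60.3 in MBNL KD, 4995 ± 93.6 in RBPMS KD1 and 217.9 ± 6.72 in P. Each of the 8 fell in P and in RBPMS KD1, where 37.6% and 29.5% of all genes fell. In MBNL KD 6 fell and 2 rose, Myh11 by 0.54 and Cnn1 by 0.12.

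Markers of other cell types were followed as lists. Of 8 macrophage and monocyte markers, Ptprc reached at most 4 counts in any library, Itgam 2, Adgre1 2 and Aif1 5. Their sum was almost all Cd14 and was 84.5 to 87.1 CPM in RBPMS KD1, 58.4 to 62.5 in D1, 52.4 to 55.7 in MBNL KD and 48.8 to 51.0 in P. Cd14 rose in RBPMS KD1 (0.52) and fell in P and MBNL KD (-0.29 and -0.17), and Csf1r was called higher in MBNL KD (1.301 on the log2 scale). The 7 lymphocyte markers summed to at most 0.352 CPM in any library, with Cd3g, Cd8a and Ms4a1 at 2 counts or fewer, and the low Cd3e was called higher in P. The 4 dendritic cell markers summed to at most 0.651 CPM, and of these Batf3 was called higher in both knockdowns, at 1.39 and 2.38. The 5 endothelial markers summed to 0.747 to 0.817 CPM in D1, 5.42 to 6.75 in P, 1.83 to 1.84 in RBPMS KD1 and 0.934 to 1.41 in MBNL KD. In P, where 16.4% of all genes were called higher, 3 of 5 were called higher: Cdh5 had no count in D1 and 1.303 to 1.471 CPM in P, with Tek and Vwf beside it, while Pecam1 reached at most 14 counts and Kdr 4. The sum was above D1 in all libraries of the other 3 groups. In RBPMS KD1, where 3.06% of all genes were called higher, Tek and Vwf were called higher as well, with Cdh5 and Kdr at 0 counts, and in MBNL KD neither of the 2 tested passed. The part of these marker changes in the MHC results was not tested, and in bulk RNA fewer cells of a type and less RNA per cell cannot be told apart.

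Of the 57 members, 55 had at least 1 count in the 12 libraries, and RT1-M1-4 and RT1-M1-5 had none. The filter on low counts removed 17 members from all 4 comparisons: 11 class I heavy chains with at most 25 counts in a library, 5 class II chains with at most 12, and RT1-DOa with at most 2. A further 5 (Psmb8, RT1-DMb, RT1-DOb, RT1-Db1 and RT1-T18) passed the filter only in P against D1. In all, 30 members reached a mean of 1 CPM in at least 1 group. Many class I heavy chain genes are near-identical copies, and how the authors treated reads that fit more than 1 copy is not given in the sources used here, so the values of single RT1-A, RT1-CE and RT1-N genes are uncertain. A change below is the log2 fold change of edgeR's quasi-likelihood test, with p-values adjusted by Benjamini-Hochberg over all genes tested. A gene is said to have risen or fallen where the adjusted p was under 0.05, and is called where its absolute log2 fold change was above 1 as well.

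The proliferative cells differed from D1 by a higher level of most members tested. Of the 40 members tested, 33 rose, 3 fell and 4 did not pass, and 30 were called higher, against 16.4% of all 16814 genes tested called higher and 11.2% called lower. Adjusted p under 0.05 was reached by 40.4% of all genes in the upward direction and 37.6% in the downward direction. Among the 35 members that also passed the filter in another comparison, 28 rose and 25 were called higher. The median log2 fold change of the 40 was 1.73, beside 0.02 over all genes tested. It includes 5 members that passed the filter only in this comparison, whose log2 fold changes all lay above it. After knockdown of Rbpms in differentiated cells, 18 of 34 members tested rose, 1 fell and 15 did not pass. The members Nlrc5 and RT1-S3 were called higher in that comparison and none lower, against 3.06% and 1.62% of all 15904 genes. The call of RT1-S3 was lost without RBPMS KD1 replicate 1 (log2 fold change 0.96), which left 1 member called, and limma on the normalised values also called 1. There 29.5% of all genes rose and 29.5% fell, and the members' median was 0.28 beside 0.0043 over all genes.

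Knockdown of Mbnl1 and Mbnl2 went the other way for most members. Of 35 tested, 22 fell, 2 rose and 11 did not pass, where 33.7% of all 16053 genes tested fell and 33.8% rose. The median of the members was -0.46 beside 0.0099 over all genes, and 1 member was called, RT1-A3 (lower), against 4.14% of genes called lower and 6.1% called higher. The knockdowns were compared with each other directly, without D1. In MBNL KD against RBPMS KD1, 27 of 34 members were lower at an adjusted p under 0.05, 3 were higher and 4 did not pass, where 34.5% of all 16111 genes tested were lower and 35.1% higher. Here 8 members were called lower (RT1-A3, RT1-CE13, RT1-CE15, RT1-M3-1, RT1-M6-2, Nlrc5, Psmb9 and Tap2) and 2 higher (Ciita and Cd74), against 6.03% and 5.88% of all genes, and the members' median was -0.85 beside 0.012 over all genes. The call of RT1-A3 was lost without RBPMS KD1 replicate 2 (adjusted p = 0.073) or MBNL KD replicate 2 (adjusted p = 0.077). With limma on the normalised values 4 members were called here in place of 10.

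**Figure D1:**
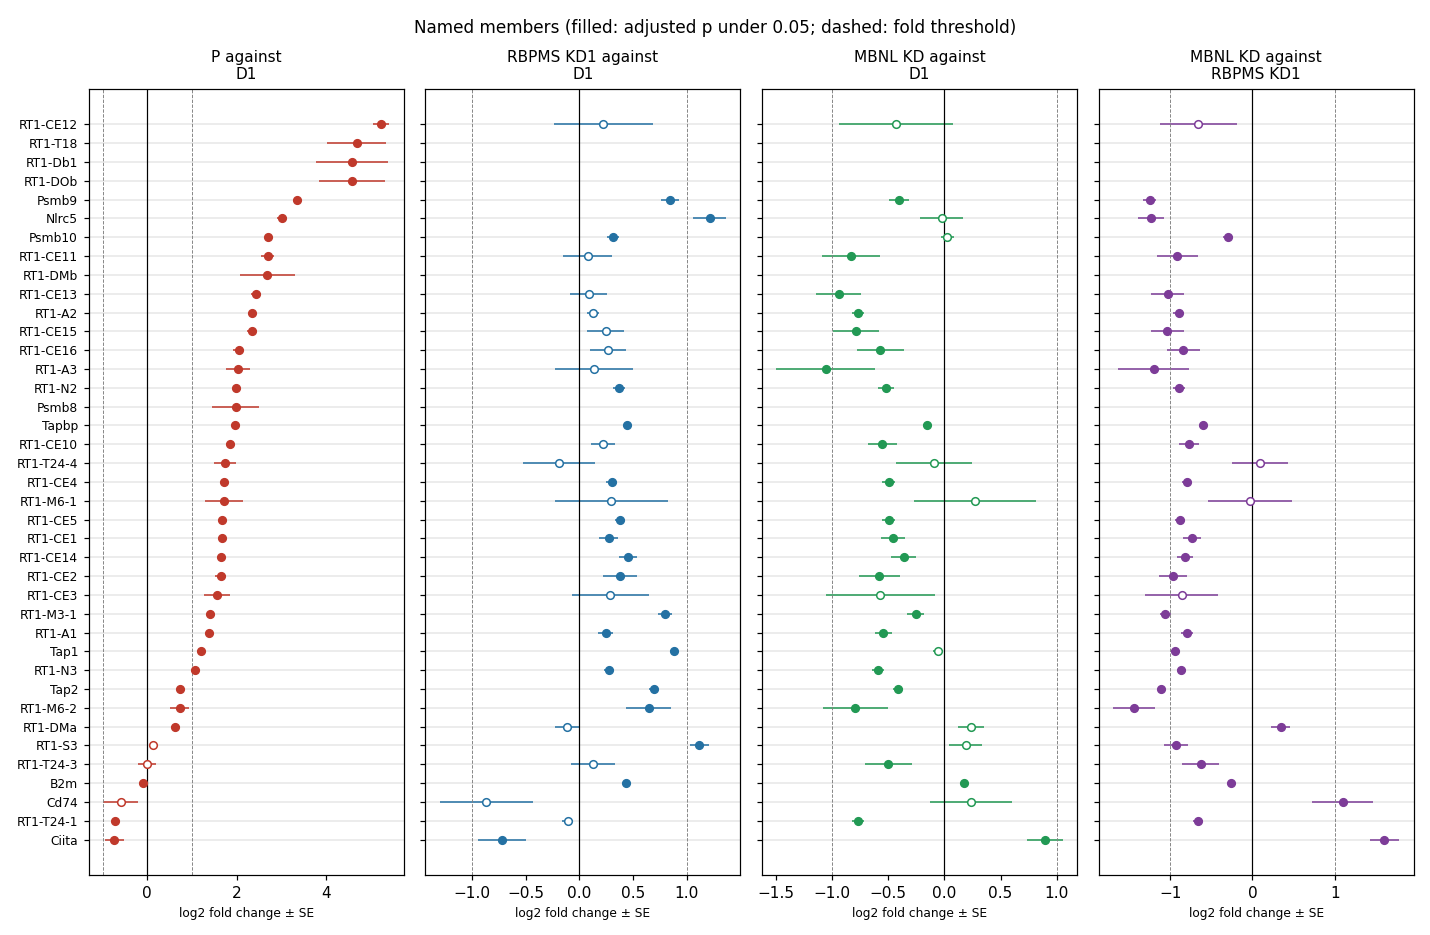
Log2 fold changes with their standard errors (x axis) of the 39 named members (y axis, ordered by P against D1) in the 4 comparisons. Psmb8, RT1-DMb, RT1-DOb, RT1-Db1 and RT1-T18 were tested in P against D1 only and have no point elsewhere. Filled points have an adjusted p under 0.05 and dashed lines mark a log2 fold change of 1 in either direction. Most members lie right of 0 in P, closer to 0 on the right in RBPMS KD1, and left of 0 in MBNL KD, while Ciita lies left of 0 in P and RBPMS KD1 and right of 0 in MBNL KD.

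Class I heavy chains carry the peptide groove. RT1-A2, of the classical RT1-A region and the heavy chain with the most counts, had 17.1, 16.6 and 17.2 CPM in the D1 libraries, 87.5, 82.8 and 89.7 in P, 20.0, 18.7 and 16.7 in RBPMS KD1 and 10.3, 9.74 and 9.67 in MBNL KD. All P libraries were above and all MBNL KD libraries below those of D1, and RBPMS KD1 overlapped D1. It rose in P by 2.35 on the log2 scale (SE 0.0373, adjusted p = 6.2e-33) and fell by 0.77 in MBNL KD (SE 0.0554, adjusted p = 3.1e-13), with 0.13 in RBPMS KD1 (adjusted p = 0.057). The last value passed without RBPMS KD1 replicate 3 (0.19, adjusted p = 3.7e-03) and in 1 fit of 12 libraries (adjusted p = 0.037). RT1-A1 rose by 1.39 in P and by 0.25 in RBPMS KD1 (adjusted p = 2.8e-03) and fell by 0.55 in MBNL KD. RT1-A3 rose by 2.04 in P. Its call in MBNL KD rested on low levels, 0.230 to 0.242 CPM in D1 and 0.0779 to 0.135 CPM in MBNL KD, and its log2 fold change of -1.06 had an SE of 0.438 and an adjusted p of 0.034. That call was lost with no filter on low counts (adjusted p = 0.068), with DESeq2 (0.064), and when any one of D1 replicates 1, 2 and 3 or MBNL KD replicates 1 and 2 was left out (0.061 to 0.14).

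RT1-CE genes, the largest group among the heavy chain genes, rose in P without exception among those tested: 12 of 14 were tested and all 12 were called higher, with log2 fold changes of 1.56 to 5.24, where 16.4% of all genes were called higher. Among the same 12, 5 rose and 7 did not pass in RBPMS KD1 (0.08 to 0.45), where 29.5% of all genes rose. In MBNL KD 10 fell and 2 did not pass (-0.94 to -0.36), where 33.7% of all genes fell. RT1-CE5, the RT1-CE gene with the most counts, had 19.3, 19.8 and 19.9 CPM in D1, 62.3, 62.5 and 65.2 in P, 26.5, 26.0 and 24.2 in RBPMS KD1 and 13.8, 12.5 and 15.5 in MBNL KD. The 4 groups did not overlap, in the order P, RBPMS KD1, D1 and MBNL KD from high to low. Its log2 fold changes against D1 were 1.68 in P (SE 0.0368, adjusted p = 6.3e-29), 0.38 in RBPMS KD1 (SE 0.046, adjusted p = 4.1e-08) and -0.50 in MBNL KD (SE 0.0592, adjusted p = 1.5e-08).

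RT1-CE12 set P apart most. It had between 0.0690 and 0.217 CPM in the libraries of D1, RBPMS KD1 and MBNL KD, and 5.72, 5.67 and 5.30 CPM in P. Summed over 3 libraries this was 1567 counts in P and 38 in D1, a ratio of 38 after scaling to depth, with a 95% exact interval of 24.2 to 63.5 for counting error computed on halved counts, since 68.7% of the counts from 1 to 20 in the table were even and mates of a pair may have been counted separately. RT1-CE11, RT1-CE13 and RT1-CE15 also rose by more than most of the group in P, by 2.695, 2.44 and 2.35, and fell by 0.83, 0.94 and 0.79 in MBNL KD. RT1-CE1, RT1-CE2, RT1-CE4 and RT1-CE14 lay close together in P, at 1.68, 1.65, 1.73 and 1.66, and rose in RBPMS KD1 by 0.27, 0.38, 0.30 and 0.45. The rise of RT1-CE2 in RBPMS KD1 (adjusted p = 0.038) did not pass with DESeq2 (0.056), with limma (0.12), or without D1 replicate 1, D1 replicate 2, RBPMS KD1 replicate 2 or RBPMS KD1 replicate 3 (0.064 to 0.14). That of RT1-CE1 did not pass with limma (0.081) or without RBPMS KD1 replicate 3 (0.071). RT1-CE10 and RT1-CE16 rose by 1.84 and 2.05 in P, with 0.22 (adjusted p = 0.096) and 0.26 (0.18) in RBPMS KD1, and the fall of RT1-CE16 in MBNL KD did not pass without MBNL KD replicate 2 (0.093) or 3 (0.075). The low RT1-CE3 rose by 1.56 in P, and its value in MBNL KD was -0.57 with an adjusted p of 0.30, or -1.72 with 8.1e-03 without MBNL KD replicate 1.

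RT1-N2 and RT1-N3 moved like RT1-CE5 in direction. RT1-N2 had 10.8, 11.4 and 11.1 CPM in D1, 45.9, 43.3 and 42.2 in P, 14.0, 14.4 and 14.4 in RBPMS KD1, and 8.60, 7.13 and 7.30 in MBNL KD. Its groups did not overlap, and the log2 fold changes were 1.98 in P, 0.37 in RBPMS KD1 and -0.52 in MBNL KD. Those of RT1-N3 were 1.07, 0.27 and -0.59. RT1-M3-1, the gene of a class I molecule known for binding peptides with a formylated first residue, had 10.4, 12.01 and 9.94 CPM in D1, 29.9, 28.2 and 27.6 in P, 20.3, 18.4 and 17.4 in RBPMS KD1 and 9.21, 8.08 and 9.70 in MBNL KD. It rose by 1.41 in P (adjusted p = 2.2e-21) and by 0.80 in RBPMS KD1 (SE 0.0656, adjusted p = 1.9e-11), and between the knockdowns it was lower in MBNL KD by a log2 fold change of -1.06 (SE 0.0673, adjusted p = 1.1e-14). It also fell in MBNL KD against D1, with all MBNL KD libraries below those of D1, and this did not pass with limma (-0.23, adjusted p = 0.1). RT1-M6-2 rose by 0.73 in P and 0.64 in RBPMS KD1, fell by 0.79 in MBNL KD (adjusted p = 0.016), and at -1.44 had the most negative log2 fold change of all members between the knockdowns (SE 0.258, adjusted p = 1.3e-05). Its rise in P did not pass with limma (0.16, adjusted p = 0.15), its rise in RBPMS KD1 without RBPMS KD1 replicate 2 (adjusted p = 0.072), and its fall in MBNL KD without D1 replicate 3 (adjusted p = 0.056) or MBNL KD replicate 3 (-0.52, adjusted p = 0.12). RT1-M6-1, at no more than 0.320 CPM in any library, rose by 1.73 in P, with 0.30 in RBPMS KD1 and 0.27 in MBNL KD (adjusted p = 0.65 and 0.68).

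A few heavy chains did not follow this pattern. RT1-S3, listed by RefSeq with the mouse synonym H2-T23, had 6.90, 6.30 and 7.21 CPM in D1 and 6.82, 7.38 and 8.24 in P, so that D1 and P overlapped (log2 fold change 0.14, adjusted p = 0.11). It stood at 17.8, 13.2 and 13.2 CPM in RBPMS KD1, above all D1 libraries, and at 10.4, 4.60 and 8.16 in MBNL KD, on both sides of D1. The rise in RBPMS KD1 was 1.12 (SE 0.0872, adjusted p = 6.5e-12), the most positive of the heavy chains there, and the value in MBNL KD was 0.19 (SE 0.147, adjusted p = 0.26). That value passed without MBNL KD replicate 2 (0.46, adjusted p = 8.3e-05) and with no filter on low counts (0.18, adjusted p = 0.042), and the value in P passed without P replicate 1 (0.20, adjusted p = 0.039). RT1-T24-1 fell in P: it had 19.7, 18.9 and 19.6 CPM in D1, 12.3, 12.1 and 10.8 in P, 18.7, 18.2 and 17.0 in RBPMS KD1, and 11.3, 11.9 and 10.9 in MBNL KD. P and MBNL KD lay together below D1, with log2 fold changes of -0.73 (SE 0.0551, adjusted p = 9.5e-14) and -0.77 (SE 0.053, adjusted p = 1.2e-13), and RBPMS KD1 was at -0.11 (adjusted p = 0.058), or -0.14 without RBPMS KD1 replicate 1 (adjusted p = 0.029). RT1-T24-3 had a log2 fold change of -0.0035 in P (adjusted p = 0.99), or -0.34 with limma on the normalised values (adjusted p = 0.024). It fell by 0.50 in MBNL KD, where its adjusted p of 0.040 became 0.061 with DESeq2, 0.054 with the replicate number as a block, 0.058 to 0.076 without any one D1 library, and 0.17 without MBNL KD replicate 2 (-0.38). RT1-T24-4 rose by 1.75 in P, with -0.19 and -0.09 in RBPMS KD1 and MBNL KD (adjusted p = 0.66 and 0.82). RT1-T18 had 94 counts in P and 3 in D1 over 3 libraries each, a ratio of 28.9 with a counting interval of 7.41 to 1.75e+03.

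**Figure D2:**
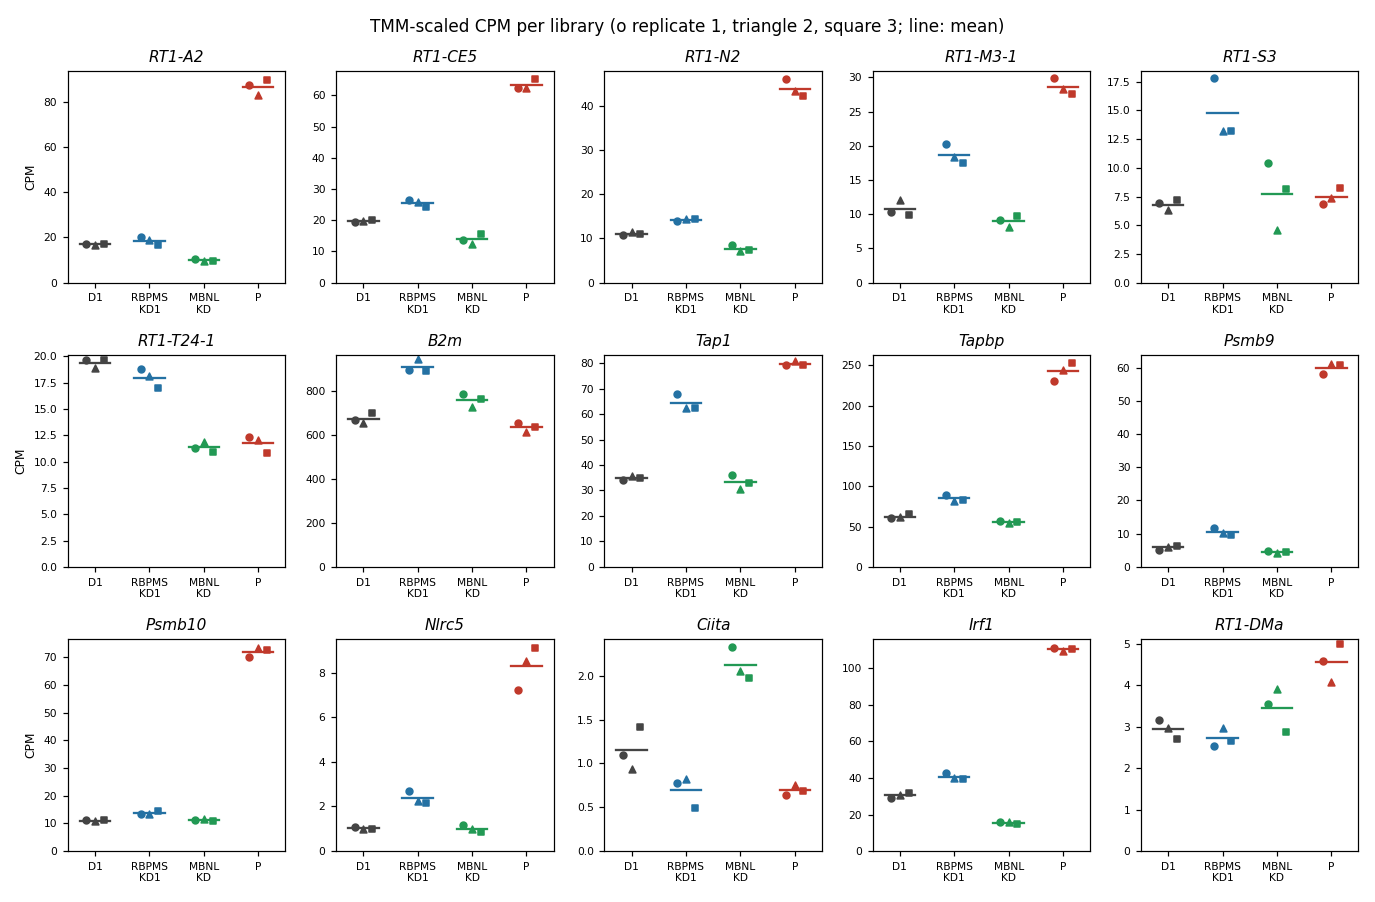
Level in CPM (y axis, from 0 and scaled per gene) of 14 members and the transcription factor Irf1 in each library of the 4 groups (x axis). Circles, triangles and squares are replicates 1, 2 and 3 and lines are means of 3 libraries. RT1-A2, RT1-CE5, RT1-N2, Tapbp, Psmb9, Psmb10, Nlrc5 and Irf1 were highest in P, B2m and RT1-S3 were highest in RBPMS KD1, and Ciita was highest in MBNL KD.

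Summed over the 37 class I heavy chain genes, which is less exposed than a single gene to the way reads were divided among copies, the level was 143.7 ± 0.433 CPM in D1 (SD, n = 3), 419.7 ± 8.59 in P, 181.3 ± 8.5 in RBPMS KD1 and 100 ± 6.16 in MBNL KD. The 4 ranges did not overlap, and MBNL KD lay between 92.99 and 104.4 CPM. Without RT1-A2 and RT1-CE5, the pair with the most counts, the sums were 107, 269.7, 137.2 and 76.21 CPM in the same order. The 14 RT1-CE genes summed to 50.61 ± 0.846 CPM in D1, 178.5 ± 3.27 in P, 63.52 ± 2.12 in RBPMS KD1 and 35.45 ± 2.7 in MBNL KD. By gene, 22 of 26 heavy chains tested rose and 1 fell in P (median 1.71), where 40.4% of all genes rose. Setting aside RT1-T18, which passed the filter only through its counts in P, 21 of 25 rose, while the median of 1.71 includes it. In RBPMS KD1 11 of 24 rose and none passed downward (median 0.27), where 29.5% of all genes rose, and in MBNL KD 19 of 25 fell and none passed upward (-0.55), where 33.7% of all genes fell. Between the knockdowns 20 of 24 were lower in MBNL KD, with a median of -0.86, where 34.5% of all genes were lower.

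**Figure D3:**
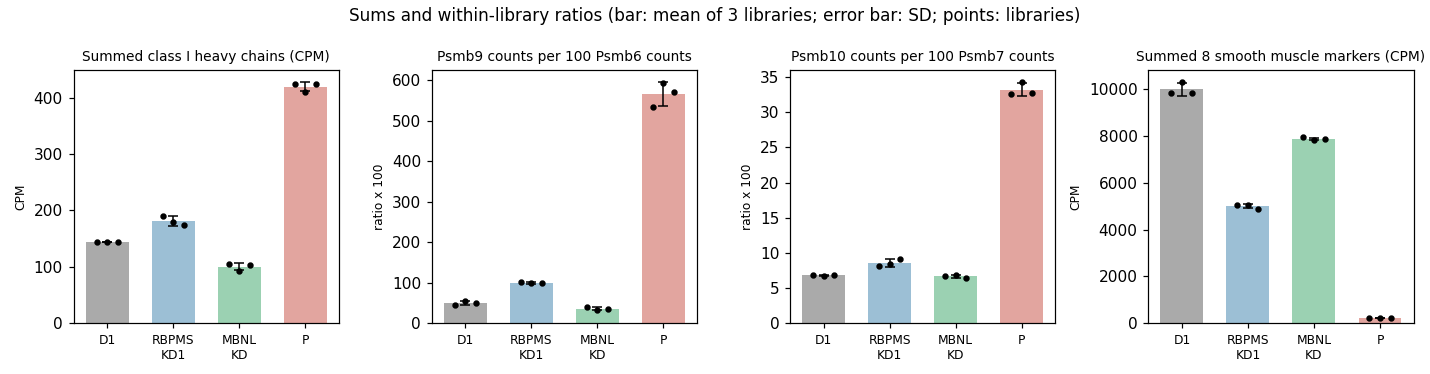
Summed class I heavy chain level in CPM, Psmb9 counts per 100 Psmb6 counts, Psmb10 counts per 100 Psmb7 counts, and summed level of 8 smooth muscle markers in CPM (y axes, from 0) in the 4 groups (x axes). Bars are means of 3 libraries, error bars are SDs and points are libraries. The class I sum was 419.7 CPM in P and 100 CPM in MBNL KD, with D1 at 143.7 and RBPMS KD1 at 181.3, whereas the smooth muscle sum was highest in D1 and lowest in P.

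B2m encodes the light chain that all class I heavy chains share. Its level was 667, 653 and 697 CPM in D1, 653, 613 and 635 in P, 894, 945 and 889 in RBPMS KD1 and 784, 723 and 763 in MBNL KD. The level in P overlapped that in D1, and both knockdowns lay above D1. It rose by 0.44 in RBPMS KD1 (SE 0.0277, adjusted p = 6.7e-14) and by 0.18 in MBNL KD (SE 0.0281, adjusted p = 2.1e-06), and was lower in MBNL KD than in RBPMS KD1 by a log2 fold change of -0.27 (adjusted p = 1.6e-09). In P it fell by 0.09 (log2 fold change -0.085, SE 0.0261, adjusted p = 3.8e-03), and this direction turned to 0.20 (adjusted p = 9.3e-03) with limma on the authors' normalised values.

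Peptide transport and loading genes rose in both P and RBPMS KD1. Tap1 had 34.0, 35.6 and 35.1 CPM in D1, 79.4, 80.7 and 79.3 in P, 67.8, 62.3 and 62.4 in RBPMS KD1 and 36.1, 30.8 and 32.9 in MBNL KD. MBNL KD overlapped D1, and P and RBPMS KD1 were each above it. The rises were 1.19 in P (SE 0.0321, adjusted p = 2.7e-26) and 0.88 in RBPMS KD1 (SE 0.0372, adjusted p = 7.3e-18), with -0.06 in MBNL KD (adjusted p = 0.23), or -0.12 without MBNL KD replicate 1 (adjusted p = 0.016). Tap2, the other chain of the transporter, had 27.5, 26.6 and 28.6 CPM in D1, 44.1, 45.6 and 47.1 in P, 46.6, 43.8 and 42.7 in RBPMS KD1 and 21.2, 20.4 and 20.1 in MBNL KD. Its levels in P and RBPMS KD1 overlapped, with rises of 0.73 and 0.69, and it fell by 0.41 in MBNL KD (SE 0.0444, adjusted p = 1.8e-09). Tapbp had 61.1, 61.4 and 65.1 CPM in D1, 231, 244 and 253 in P, 89.5, 82.2 and 83.5 in RBPMS KD1 and 57.3, 54.7 and 55.6 in MBNL KD. All P libraries lay above every other library, at a log2 fold change of 1.96 against D1 (SE 0.0313, adjusted p = 8.2e-33), with 0.45 in RBPMS KD1 and -0.16 in MBNL KD (adjusted p = 7.8e-05), which did not pass with limma (adjusted p = 0.11). Between the knockdowns Tap1, Tap2 and Tapbp were all lower in MBNL KD, at -0.95, -1.11 and -0.61.

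Of the immunoproteasome subunits, Psmb9 and Psmb10 were high in P and Psmb8 was hardly detected. Psmb9 had 5.17, 6.05 and 6.44 CPM in D1, 58.2, 61.0 and 60.9 in P, 11.7, 10.3 and 9.60 in RBPMS KD1 and 4.74, 4.14 and 4.40 in MBNL KD. The groups did not overlap, and the changes were 3.35 in P (SE 0.0522, adjusted p = 3.9e-33), 0.84 in RBPMS KD1 (SE 0.0813, adjusted p = 5.3e-10) and -0.40 in MBNL KD (SE 0.0917, adjusted p = 2.9e-04). Psmb10 had 11.2, 10.7 and 11.05 CPM in D1, 70.1, 73.4 and 72.5 in P, 13.4, 13.2 and 14.4 in RBPMS KD1 and 11.2, 11.4 and 10.8 in MBNL KD. It rose by 2.71 in P (SE 0.0397, adjusted p = 6.5e-34) and by 0.32 in RBPMS KD1 (SE 0.0575, adjusted p = 2.7e-05), with 0.03 in MBNL KD (adjusted p = 0.73). Psmb8 had 8, 0 and 10 counts in D1, 32, 24 and 22 in P, 12, 0 and 18 in RBPMS KD1 and 6, 4 and 8 in MBNL KD. The ratio of P to D1 was 4, with a counting interval of 1.9 to 9.38 on halved counts, and all 12 of its counts were even.

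None of the constitutive counterparts of these subunits was called against D1. Psmb6, the counterpart of Psmb9, fell by 0.16 in P and by 0.16 in RBPMS KD1 (adjusted p = 0.022 and 0.037), with 0.07 in MBNL KD (adjusted p = 0.31). Psmb5, the counterpart of Psmb8, fell by 0.07 in P (adjusted p = 0.018). Psmb7, the counterpart of Psmb10, rose by 0.43 in P (adjusted p = 9.1e-17), with -0.0012 in RBPMS KD1 (adjusted p = 0.97) and 0.07 in MBNL KD (adjusted p = 0.013). Within a library, Psmb9 had 49.8 ± 5.38 counts per 100 counts of Psmb6 in D1 (SD, n = 3), 566 ± 30.2 in P, 99.6 ± 2.4 in RBPMS KD1 and 35.8 ± 3.64 in MBNL KD. For Psmb10 the same ratio to Psmb7 was 6.83 in D1, 33.2 in P, 8.51 in RBPMS KD1 and 6.64 in MBNL KD. These ratios are not corrected for the lengths of the genes, so they compare groups and not subunits.

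Nlrc5 and Ciita, the coactivators of class I and class II genes, moved in opposite directions in P and in RBPMS KD1. Nlrc5 had 1.09, 0.977 and 0.989 CPM in D1, 7.201, 8.54 and 9.09 in P, 2.68, 2.26 and 2.15 in RBPMS KD1 and 1.16, 0.979 and 0.848 in MBNL KD. P and RBPMS KD1 stood above D1, which MBNL KD overlapped. The rises were 3.02 in P (SE 0.113, adjusted p = 3.3e-22) and 1.21 in RBPMS KD1 (SE 0.152, adjusted p = 7.3e-08), beside -0.02 in MBNL KD (SE 0.191, adjusted p = 0.92). Ciita had 1.09, 0.942 and 1.41 CPM in D1, 0.636, 0.757 and 0.684 in P, 0.774, 0.822 and 0.497 in RBPMS KD1 and 2.33, 2.06 and 1.98 in MBNL KD. It was the other way round for this gene, with P and RBPMS KD1 below D1 and MBNL KD above it. Ciita fell by 0.73 in P (SE 0.213, adjusted p = 2.5e-03) and by 0.72 in RBPMS KD1 (SE 0.224, adjusted p = 7.0e-03), and rose by 0.89 in MBNL KD (SE 0.16, adjusted p = 1.5e-05). The fall in RBPMS KD1 did not pass without D1 replicate 3 (adjusted p = 0.071) or without RBPMS KD1 replicate 3 (adjusted p = 0.057). In the direct comparison Ciita was higher in MBNL KD by 1.61 (SE 0.179, adjusted p = 3.0e-09) and Nlrc5 lower, at -1.24 (SE 0.157, adjusted p = 3.7e-08).

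Class II genes were low in all groups. The 10 of them summed to 3.02 CPM in D1, 5.34 in P, 2.80 in RBPMS KD1 and 3.59 in MBNL KD, and nearly all of this was RT1-DMa, a chain of the exchange factor DM. Without it the sum was 0.0845 ± 0.0663 CPM in D1, 0.785 ± 0.115 in P, 0.0832 ± 0.0568 in RBPMS KD1 and 0.153 ± 0.0667 in MBNL KD. RT1-DMa had 3.16, 2.96 and 2.69 CPM in D1, 4.59, 4.08 and 4.99 in P, 2.54, 2.96 and 2.65 in RBPMS KD1 and 3.55, 3.91 and 2.86 in MBNL KD. P lay above D1, a rise of 0.63 (SE 0.104, adjusted p = 1.9e-06), and both knockdowns overlapped D1, with 0.24 in MBNL KD (adjusted p = 0.074) becoming 0.35 without MBNL KD replicate 3 (adjusted p = 0.011). RT1-DOb and RT1-Db1 each had 61 counts in P and 2 in D1 over 3 libraries, a ratio of 28.1 with a counting interval of 4.6 to 1.13e+03, and RT1-DMb had 58 and 8, a ratio of 6.69 (2.35 to 26.2). These 3 genes passed the filter through their counts in P, so their calls add nothing to the ratios. The remaining class II chains RT1-Ba, RT1-Bb, RT1-Da, RT1-Db2 and RT1-Ha did not exceed 12 counts in any library. Cd74, the invariant chain, had 0.230, 0.209 and 0.621 CPM in D1, 0.265, 0.171 and 0.267 in P, 0.262, 0.228 and 0.0903 in RBPMS KD1 and 0.470, 0.323 and 0.455 in MBNL KD. D1 replicate 3 was above every other library, and no comparison of Cd74 with D1 passed with all libraries (adjusted p = 0.089 to 0.58). Leaving out a D1 library brought RBPMS KD1 past the threshold (-1.10 without D1 replicate 1 and -1.13 without D1 replicate 2, adjusted p = 0.047 and 0.037) and, without D1 replicate 3, MBNL KD in the other direction (0.92, adjusted p = 0.047). The difference between the knockdowns, 1.10 higher in MBNL KD (SE 0.373, adjusted p = 0.010), did not pass without RBPMS KD1 replicate 3 (adjusted p = 0.093).

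For the lists that follow, the shares over all genes are the same: 40.4% rose and 37.6% fell in P, 29.5% and 29.5% in RBPMS KD1, and 33.8% and 33.7% in MBNL KD. The shares called higher and lower were 16.4% and 11.2% in P, 3.06% and 1.62% in RBPMS KD1, 6.1% and 4.14% in MBNL KD, and 5.88% and 6.03% in MBNL KD against RBPMS KD1. Other genes of class I peptide supply were read from a list of 16 loading and trimming genes, of which 15 were tested. In P 9 rose, 5 fell and 0 were called, and in RBPMS KD1 5 rose, 5 fell and 0 were called. In MBNL KD 6 rose and 6 fell, and the aminopeptidase gene Lnpep was called lower, from 155 to 168 CPM in D1 to 64.0 to 67.1 CPM (log2 fold change -1.29, SE 0.0279, adjusted p = 5.5e-26). Between the knockdowns the proteasome activator genes Psme2 and Psme3 were called in opposite directions, Psme2 lower in MBNL KD at -1.27 and Psme3 higher at 1.10, and Lnpep was lower at -1.25.

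Of 10 class II processing genes, 9 were tested. All 9 rose in RBPMS KD1, 4 rose and 4 fell in P, and 3 rose and 5 fell in MBNL KD. Ctss, encoding cathepsin S, which trims the invariant chain, had 0.483, 0.256 and 0.609 CPM in D1, 6.77, 6.29 and 6.14 in P, 1.53, 1.57 and 1.502 in RBPMS KD1 and 0.694, 0.812 and 0.602 in MBNL KD. It was called higher in P at 3.83 (SE 0.154, adjusted p = 2.8e-21) and in RBPMS KD1 at 1.77 (SE 0.232, adjusted p = 1.7e-07). Ctsb, encoding cathepsin B, was called lower in MBNL KD (-1.41), and the protease inhibitor gene Cst3 was called lower in P (-1.18).

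Among 14 transcription factors known from MHC promoters, Irf1 had 29.3, 30.5 and 31.6 CPM in D1, 111, 109 and 110 in P, 42.6, 40.1 and 39.7 in RBPMS KD1 and 15.7, 15.9 and 15.0 in MBNL KD. Its groups kept the order of RT1-CE5 without overlap, as did those of Irf8 and Rfxank in the same list. The share of all genes with this order was not computed. The log2 fold changes of Irf1 were 1.86 in P (SE 0.0319, adjusted p = 6.9e-32), 0.42 in RBPMS KD1 (SE 0.04, adjusted p = 3.4e-10) and -0.96 in MBNL KD (SE 0.046, adjusted p = 1.7e-17). Irf8 was also called higher in P (2.35), and Nfkb1 was called lower in MBNL KD (-1.05) with 0.01 in RBPMS KD1 (adjusted p = 0.76). In all, 9 of the 14 rose and 3 fell in P, 5 rose and 5 fell in RBPMS KD1, and 2 rose and 6 fell in MBNL KD.

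Genes of the interferon system were followed because class I genes are among its targets. Ifnb1 had no count in any of the 12 libraries, and Ifng had counts in only 1 library, P replicate 1 (0.0212 CPM). Of 17 interferon receptor and signalling genes, 15 were tested, of which 10 rose and 4 fell in P, 11 rose and 1 fell in RBPMS KD1, and 8 rose and 5 fell in MBNL KD, so that the 4 and 5 that fell in P and MBNL KD were below or near the shares over all genes. Among those called higher in P were Usp18 (1.91), Irf7 (1.27), Ifnar1 (1.17) and Stat2 (1.09), and in RBPMS KD1 Irf7 was called higher (1.14). Of 17 genes of RNA sensors and effectors 16 were tested, and 14 rose and 2 fell in P, 12 rose and 1 fell in RBPMS KD1, and 6 rose and 7 fell in MBNL KD. In P the most positive changes were those of Oas1a (5.95), Mx1 (4.65) and Bst2 (3.12), and Ifit3 was called lower (-1.35). In RBPMS KD1 Gbp4 (2.38), Dhx58 (1.25) and Oas1a (1.03) were called higher. In MBNL KD Gbp4 (1.18) and Ifit2 (1.04) were called higher, and Bst2 (-1.11) and Mx1 (-1.02) lower. In MBNL KD against RBPMS KD1, 34.5% of all genes were lower and 35.1% higher. There 9 of these 16 were lower and 2 higher, beside 7 and 4 of the 15 signalling genes. For the 14 transcription factors the numbers were 9 and 3, and for the 9 class II processing genes 8 and 1. Called lower were 4, 0, 2 and 2 in the same order, and none of these was called higher.

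In both knockdowns replicate 1 had the highest level of several interferon genes and of RT1-S3. Mx2, an interferon-induced GTPase gene, had 27.2, 13.4 and 15.8 CPM in RBPMS KD1 and 23.2, 6.29 and 12.5 in MBNL KD, beside 11.5 to 13.4 in D1. Usp18, a brake on interferon signalling, had 11.7, 7.02 and 8.40 CPM in RBPMS KD1 and 15.7, 9.09 and 11.03 in MBNL KD, beside 5.55 to 6.50 in D1. Irf7 had 28.5, 22.1 and 23.5 CPM and 18.7, 11.5 and 12.03 CPM in the same libraries. The part of this shared replicate pattern in the class I results was not tested. Without RBPMS KD1 replicate 1, RT1-S3 still rose, by 0.96 (adjusted p = 5.2e-12), and fell short of the fold threshold. Without replicate 1 of both knockdowns, a setting chosen after seeing the data, 12 members were called between the knockdowns in place of 10, with Nlrc5 at -1.28 and Tap2 at -1.11. In that setting RT1-A3 (adjusted p = 0.053), RT1-CE13 (-0.81) and RT1-CE15 (-0.91) were no longer called, while RT1-CE2, RT1-CE3, RT1-CE16, RT1-N2 and RT1-S3 were.

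**Figure D4:**
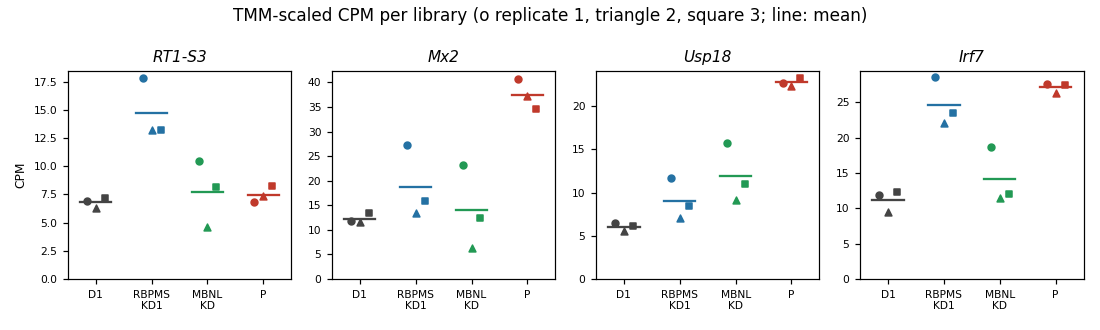
Level in CPM (y axis, from 0) of RT1-S3 and the interferon genes Mx2, Usp18 and Irf7 in each library of the 4 groups (x axis), with circles, triangles and squares for replicates 1, 2 and 3 and lines for means. In RBPMS KD1 and MBNL KD the circle is the highest of the 3 points for all 4 genes, as in 27.2 against 13.4 and 15.8 CPM for Mx2 in RBPMS KD1.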

How the data were processed

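Libraries of poly(A)-selected RNA were paired-end sequenced. Per the study's methods, the authors subsampled the reads, aligned them with STAR 2.7.11b to mRatBN7.2 and counted them per RefSeq gene with featureCounts, without normalization of the deposited counts. Treatment of multimapping reads, strand and mates is not given in the sources used here. The deposited normalised table holds signal values of 19812 genes, none under 35, made by the authors with noise correction and quantile normalization. Groups follow the sample titles, with 3 replicate cultures each.

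Counts were tested in R 4.3.3 with edgeR 4.0.16 (filterByExpr, TMM, quasi-likelihood F test) on the 6 libraries of each comparison, with Benjamini-Hochberg adjustment over all genes tested. A call needed an absolute log2 fold change above 1 at an adjusted p under 0.05. CPM are counts per 1000000 with TMM-scaled library sizes. DESeq2 1.42.0 and limma 3.58.1 served as alternatives. The procedure was run on simulated counts without low genes, with little spread and large changes only. It does not cover calls of low genes or calls near the fold threshold. Named are the 10 members outside RT1, every RT1 gene with a mean of 1 CPM in some group or a call, and, of the other lists, Psmb5, Psmb6, Psmb7 and called genes (at most the 6 largest per list and comparison). Markers, targeted genes, and genes outside this rule named beside a result (Ifnb1, Ifng, Rfxank) serve as checks. The members and lists were chosen with earlier results of these data known. Replicate numbers were not used to pair the libraries in the main tests. A comparison of protein sequences was not made. Some genes of the lists are not reported here.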

Additional observations from a re-analysis of the deposited data

How the results depend on the processing

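The number of members called in P against D1 (30) was within 1.5 times under all alternatives tried: DESeq2's size factors, no filter, at least 10 counts in every library, DESeq2, limma on the normalised values, 1 fit of 12 libraries, the replicate block, halved counts and no fold threshold. Leaving out single libraries gave 30 to 31 calls there, 1 to 3 in RBPMS KD1 against D1 (2 in the main comparison), 0 to 2 in MBNL KD against D1 (1) and 8 to 12 in MBNL KD against RBPMS KD1 (10). In RBPMS KD1 against D1, 1 member was called without RBPMS KD1 replicate 1 (Nlrc5), and 1 with limma. In MBNL KD against D1, 0 were called with no filter, with at least 10 counts in every library, with DESeq2, with limma, with halved counts, and without D1 replicate 1 or D1 replicate 2. At an adjusted p under 0.05 with no fold threshold 24 passed there, and without MBNL KD replicate 2 the 2 called were RT1-CE13 and RT1-M6-2, in place of RT1-A3. Without D1 replicate 3 the 1 call was Ciita (higher), and without MBNL KD replicate 1 it was RT1-CE3 (-1.72). With no fold threshold 19 members passed in RBPMS KD1 against D1 and 30 between the knockdowns, where limma called 4. The cause of these shifts was not tested, nor was the part of the floor of 35 in the normalised values that limma used. Of 1975 alternative values for single genes, 1915 kept their direction and side of the threshold, 42 no longer passed, 17 newly passed, and 1 reversed: B2m in P against D1, at 0.20 with limma. Without RT1-A2 and RT1-CE5 the differences in the class I sum were 163 CPM for P, 30.2 for RBPMS KD1 and -30.8 for MBNL KD against D1, and -61.0 between the knockdowns.

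Over all genes but the lowest, correlations of same-numbered libraries' deviations from their group means ran from -0.02 to 0.041 over 12 values. These correlations cannot show a pattern limited to few genes, such as that of replicate 1 in Mx2, Usp18, Irf7 and RT1-S3. With the replicate number as a block, 30, 2, 1 and 11 members were called in the 4 comparisons in the order above. Between the knockdowns RT1-CE3 passed in that setting (-1.04, adjusted p = 0.031), which it did not in the main comparison.

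With 3 libraries per group, small changes of the low genes (RT1-A3, RT1-CE3, RT1-M6-1, Cd74 and most class II genes) could not be settled at this depth. Single class I copies remain uncertain, since the division of shared reads was not tested.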
